A study of Mus musculus with 6 samples.

Results

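The 9 transcription regulators that build the bipotential gonad, Wt1, Nr5a1, Gata4, Lhx9, Emx2, Cbx2, Nr0b1, Six4 and Zfpm2, were followed in fetal mouse ovaries after gestational exposure to panobinostat (PB), an inhibitor of histone deacetylases. The members were the genes of these names in the deposited annotation. Their 41 transcripts were summed to 9 genes out of 35974 gene names in the table. Strand-specific polyA RNA-seq covered 3 control pools and 3 PB pools of whole E15.5 ovaries from inbred C57BL/6J mice with no transgene or mutation. The PB dams received 5 mg/kg by the labels per day, and by the study's methods on alternate days, from E6.5 to E15.5; control dams received DMSO and water. A pool was 4 ovaries by the sample labels, 6 to 8 by the series text and at least 8 by the methods, so each value is an average over several embryos, and no source used here says how many litters a pool held. The p-values therefore measure only the spread between these 6 pools.

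In the mouse embryo, the gonad arises as a thickening of the coelomic epithelium beside the mesonephros, and it is at first the same in both sexes. WT1, EMX2 and LHX9 are needed for this genital ridge to grow, SIX4 acts upstream of Nr5a1, and CBX2 is a Polycomb protein whose loss reduces gonadal growth. NR5A1 (SF-1), a nuclear receptor, drives gonadal and adrenal development and steroidogenic genes, NR0B1 (DAX1) represses NR5A1-dependent transcription, and GATA4 acts with its cofactor ZFPM2 (FOG2). After sex determination these genes stay active in the somatic cells of the ovary, in pregranulosa cells, the surface epithelium or the interstitium. In bulk ovaries, fewer cells of a type and less RNA per cell cannot be told apart.

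Library totals ranged from 97165644 to 125985399 counts, and each of the 9 genes had at least 643 counts in every pool. The pregranulosa marker Foxl2 lay between 135.4 and 166.4 CPM (counts relative to the TMM-scaled library size), as the labelled tissue would have. Sry, the testis-determining gene, had 0 counts in every pool. The enzymes Cyp21a1, Cyp11b1 and Cyp11b2 of the adrenal cortex, the neighbouring organ that also uses Nr5a1 and Nr0b1, had at most 9 counts in any pool. Mrap, Akr1b7 and Mc2r, also read as adrenal markers, were low but present, at up to 8.17, 1.64 and 0.988 CPM in a pool.

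The transcripts of Wt1, Gata4 and Lhx9 differ by short coding stretches that decide which protein is made, so these stretches are shown before the values. They were read from the GENCODE M21 transcripts of the same build (mm10, GRCm38), 5′ to 3′, and the capitals mark the bases that differ. Wt1 (chr2:105126529-105173614, plus strand) has an optional exon 5 at chr2:105144142-105144192, and a choice of 5′ splice site at the end of exon 9 that adds or omits the 9 bases chr2:105170010-105170018, known as KTS from the amino acids they encode.
Wt1 exon 5 with its flanking exons: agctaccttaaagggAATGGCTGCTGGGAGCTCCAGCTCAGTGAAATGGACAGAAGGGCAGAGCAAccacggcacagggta
Wt1 +KTS, exon 9 into exon 10: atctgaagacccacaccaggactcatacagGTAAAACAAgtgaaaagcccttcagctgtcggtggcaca
Wt1 −KTS, the same junction: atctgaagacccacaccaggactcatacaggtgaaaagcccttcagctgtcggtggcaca

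Gata4 (chr14:63198914-63271715, minus strand) has an exon with acceptors 3 bases apart, at chr14:63204756-63204758, and the coding sequences with and without these bases are 1329 and 1326 bases long.
Gata4 with the 3 bases: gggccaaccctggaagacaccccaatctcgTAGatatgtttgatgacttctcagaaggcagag
Gata4 without them: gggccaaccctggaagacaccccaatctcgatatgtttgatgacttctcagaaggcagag

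Lhx9 (chr1:138825186-138848644, minus strand) has an upstream and an internal start, each with a start codon of its own, and a proximal and a distal last exon. The coding part of the distal last exon, stop codon included, is 57 bases and that of the proximal one 258 bases. The capitals below are the coding bases before the shared exon, and then the first 57 coding bases of each last exon.
Lhx9 upstream start, chr1:138847176-138847203: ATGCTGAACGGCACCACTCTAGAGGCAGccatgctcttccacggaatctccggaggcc
Lhx9 internal start, chr1:138841927-138841981: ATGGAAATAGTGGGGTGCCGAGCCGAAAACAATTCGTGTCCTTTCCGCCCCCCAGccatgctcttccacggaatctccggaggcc
Lhx9 distal last exon, chr1:138828654-138828710: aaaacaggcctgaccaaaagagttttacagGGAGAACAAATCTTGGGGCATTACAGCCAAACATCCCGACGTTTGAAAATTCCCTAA
Lhx9 proximal last exon, chr1:138831568-138831624: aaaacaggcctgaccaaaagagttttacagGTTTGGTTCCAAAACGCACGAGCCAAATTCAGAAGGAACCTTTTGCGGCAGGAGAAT

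The first question was whether PB changed the amount of RNA of these genes. None of the 9 passed the test (edgeR quasi-likelihood test, FC ≥ 2 and FDR ≤ 0.05), where 0.0154% of the 19435 genes tested did (3 genes). No member had an unadjusted p under 0.05, against 4.46% of genes, and in none were the pools of the groups separate, against 10.7% of genes. DESeq2's Wald test, which called 11 genes, also called 0 members and gave 0 an unadjusted p under 0.05. The log2 fold changes (log2FC, PB minus control, given below with their SE) ran from -0.13 for Six4 to 0.099 for Lhx9, 6 above 0 and 3 below, with a median of 0.0075 beside 0.0020 for all genes. For all 9 members the 95% interval lay inside a 1.5-fold change either way, which held for 61.2% of the genes tested. These intervals limit the size of a change, and they do not show that the groups were equal.

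**Figure D1:**
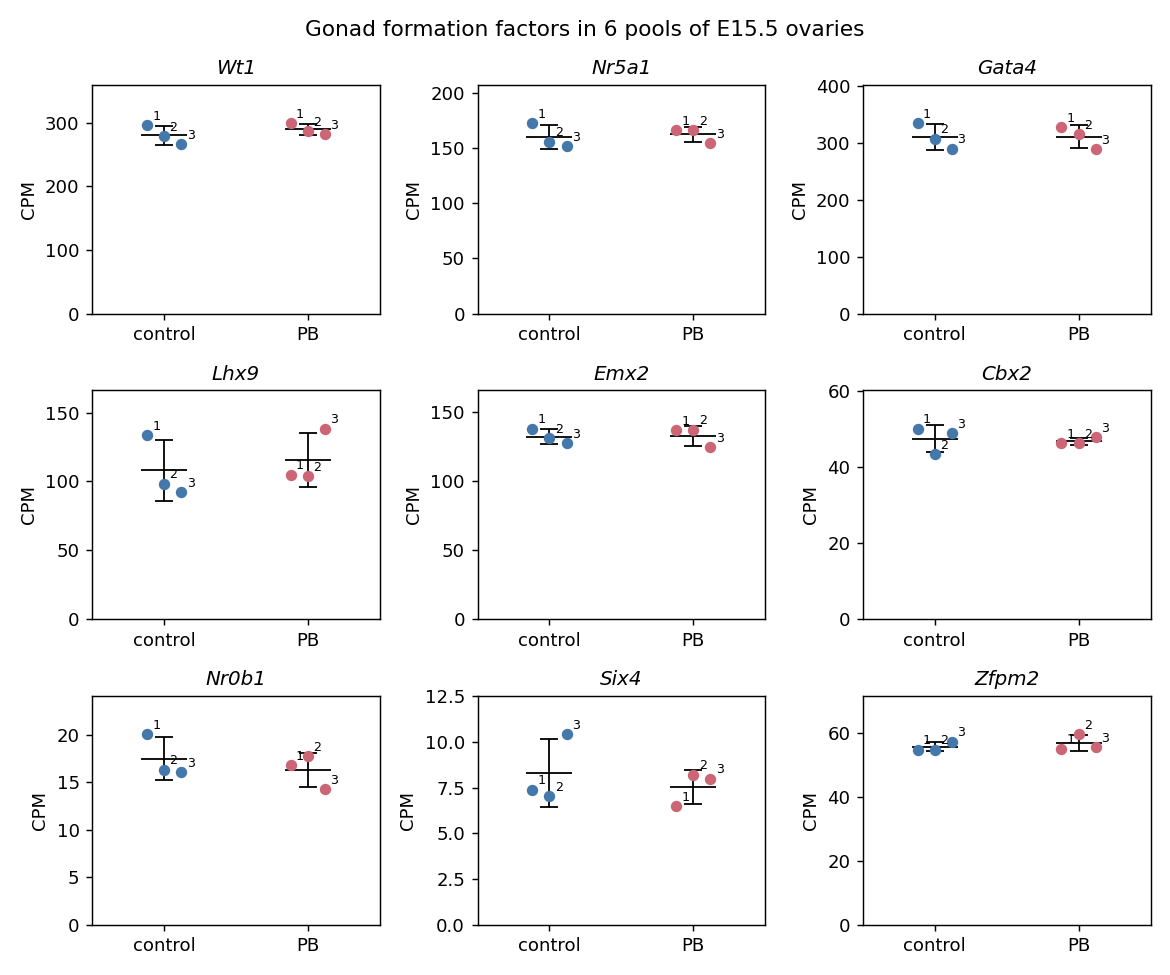
CPM of each gene (y axis, from 0) in the 3 control pools (blue) and the 3 PB pools (red); numbers are replicate numbers, and bars are the mean ± SD, n = 3. The groups overlap in all 9 panels, and Lhx9 has 1 high pool in each group, control 1 at 133.5 and PB 3 at 138.4 CPM.

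Among the factors of ridge growth, Wt1, a zinc finger factor, was at 296.0, 278.8 and 266.0 CPM in controls and at 299.5, 287.0 and 282.3 CPM in PB pools. Only PB 1 exceeded the highest control, and the fold change was 1.03 with a 95% interval from 0.946 to 1.13 (FDR = 0.897, edgeR). This was the smallest FDR of the 9 members. Emx2 (chr19:59409459-59465357), a homeobox gene also needed for the urogenital ducts, was at 138.0, 130.9 and 127.6 CPM in controls and at 136.9, 137.2 and 124.5 CPM after PB. Its lowest value was a PB pool and its highest a control pool, with log2FC = 0.0075 ± 0.057 (FDR = 0.988, edgeR).

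Lhx9, a LIM homeobox gene, varied widely between pools, and its groups overlapped. It stood at 133.5, 98.4 and 92.2 CPM in controls and at 104.8, 103.9 and 138.4 CPM in PB pools. Control 1 and PB 3 were high and the other 4 pools were near one another. The log2FC of 0.099 ± 0.17 (FDR = 0.927, edgeR) rested on these pools, as it was 0.28 without control 1 and -0.050 without PB 3. Over the 6 pools the coefficient of variation was 17.2% for Lhx9, 17.4% for Six4, 11.5% for Nr0b1 and 4.28% for Wt1. The median over the members was 5.13%, beside 6.31% for the 10643 genes with a mean of at least 10 CPM.

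Six4 (chr12:73099609-73114770), a homeobox gene, was the lowest member. Its values were 7.39, 7.04 and 10.4 CPM in controls and 6.48, 8.20 and 7.98 CPM in PB pools. Control 3 stood above the other 5 pools, and log2FC = -0.13 ± 0.18 (FDR = 0.907, edgeR) became 0.061 without that pool. Six4 had the widest 95% interval of fold change, from 0.678 to 1.23, together with Lhx9, from 0.804 to 1.43.

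For the factors of gonadal differentiation, Nr5a1 (chr2:38692656-38714559) was at 172.7, 155.9 and 151.9 CPM in controls and at 166.2, 166.4 and 154.6 CPM in PB pools. All PB values lay inside the control range. Gata4 was at 334.9, 307.5 and 289.5 CPM in controls and at 328.1, 315.1 and 288.9 CPM after PB, with means of 310.6 ± 22.9 and 310.7 ± 20.0 CPM (SD, n = 3). Those means were the closest of the 9 relative to their spread, with log2FC = 0.00035 ± 0.073 (FDR = 1.0, edgeR). Its cofactor Zfpm2 (chr15:40654884-41104592) was at 54.9, 54.9 and 57.4 CPM in controls and at 55.2, 59.8 and 55.6 CPM after PB, where log2FC = 0.028 ± 0.053 (FDR = 0.931, edgeR).

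Nr0b1 (chrX:86191775-86195947), the repressor of NR5A1, was at 20.1, 16.3 and 16.1 CPM in controls and at 16.8, 17.8 and 14.3 CPM in PB pools. Control 1 was the highest pool and PB 3 the lowest, and log2FC = -0.10 ± 0.12 (FDR = 0.901, edgeR) became 0.0058 without control 1. Cbx2 (chr11:119023019-119031275), the Polycomb member, was at 50.2, 43.4 and 49.0 CPM in controls and at 46.3, 46.3 and 47.9 CPM after PB. The PB pools were close together inside the control range, with log2FC = -0.022 ± 0.067 (FDR = 0.961, edgeR).

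**Figure D2:**
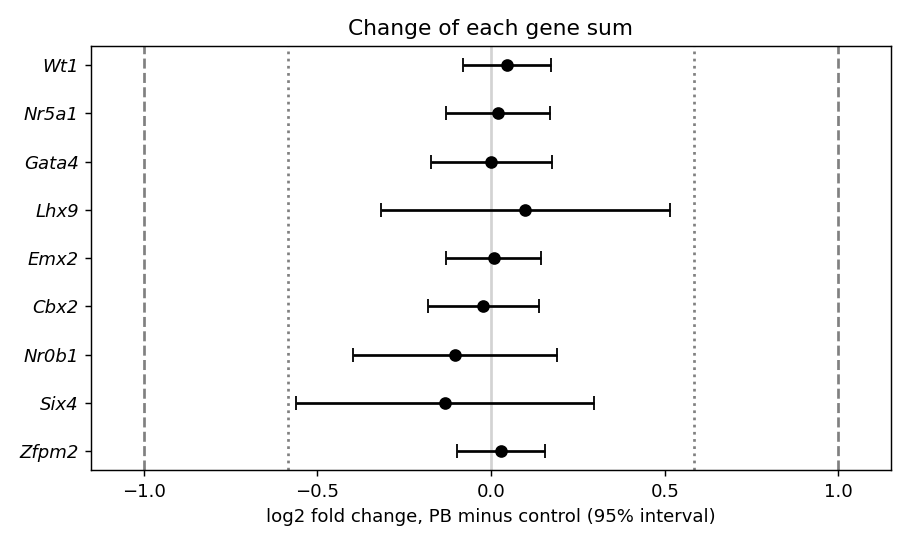
Log2 fold change (x axis, PB minus control) of each gene sum with its 95% interval from the edgeR fit; dotted lines mark a 1.5-fold and dashed lines a 2-fold change. All 9 intervals include 0 and end inside the dotted lines, and those of Lhx9, Nr0b1 and Six4 are the widest.

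The members varied together between pools in part. Control 1 was the highest control for 7 of the 9 (all but Six4 and Zfpm2), which it was for 31.5% of the genes tested. PB 3 was the lowest PB pool for 5 of the 9, against 33.5% of genes. The summed level of the 9 genes was 1208, 1093 and 1060 CPM in controls and 1160, 1142 and 1114 CPM in PB pools.

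To compare genes with each other, counts were divided by transcript length and scaled to the same total in each pool. On this per-length scale, with all transcripts counted, Wt1 (141.5 ± 11.6, SD over 6 pools) and Gata4 (137.1 ± 11.2) led and their pools overlapped. Emx2 followed at 101.3 ± 6.77, Nr5a1 at 83.0 ± 6.49 and Lhx9 at 45.3 ± 4.42. Each of these 3 lay below the gene before it in every pool: the lowest value of the higher gene exceeded the highest value of the lower one, and so did the lowest of Lhx9 over Cbx2. Cbx2 (18.3 ± 1.62), Zfpm2 (17.2 ± 1.17) and Nr0b1 (14.2 ± 1.55) overlapped with their neighbours. Six4, at 2.01 ± 0.369, was lowest in every pool, and the mean level of Wt1 was 70.5 times that of Six4. The order at the top rested on the assembled transcripts: with RefSeq-named transcripts alone Nr5a1 led at 83.0, before Gata4 at 70.5, Emx2 at 63.4 and Wt1 at 53.8.

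Levels on this scale carry no TMM scaling. The median gene was 0.11 higher in PB pools (log2), and the median of the members was 0.11 higher as well. The 8 members with a higher PB mean on the per-length scale are therefore near the shift of all genes. In 1 member, Zfpm2, the pools of the groups did not overlap on this scale, at 16.3, 15.2 and 17.6 in controls and 18.0, 18.1 and 18.0 in PB pools. The share of all genes tested without overlap on this scale was 15.7%.

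**Figure D3:**
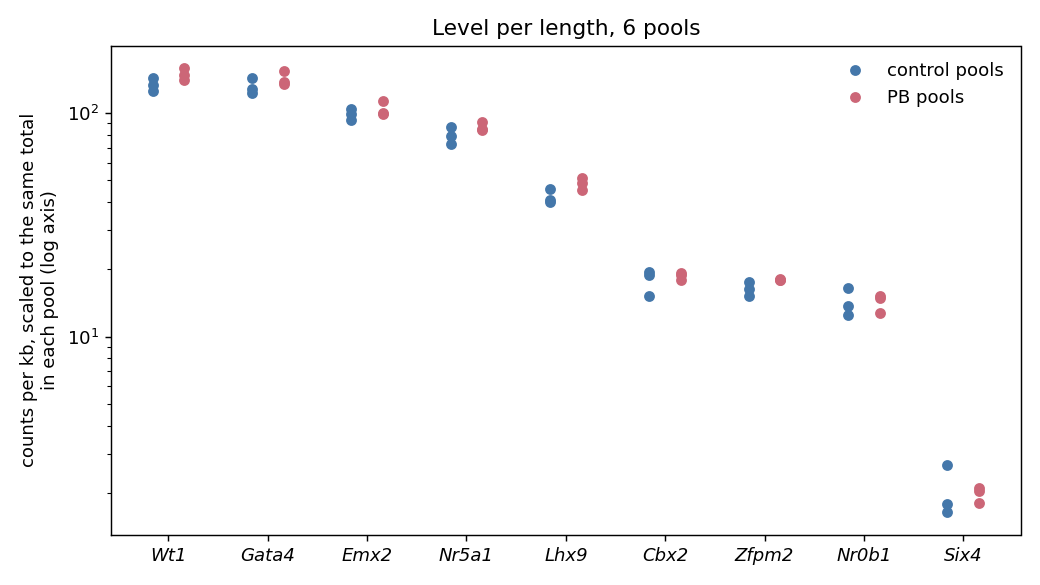
Level per length (counts per kb of transcript, scaled to the same total in each pool; log axis) of each gene in the control pools (blue) and PB pools (red), ordered by the mean of the 6 pools. With all transcripts counted, Wt1 and Gata4 lead, Cbx2, Zfpm2 and Nr0b1 lie within 12.5 to 19.5, and Six4 stays below 2.7.

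The second question was whether the transcripts of a gene shifted within its sum. Of the 41 transcripts, 38 had enough counts to be tested, and 0 passed the test (edgeR, FC ≥ 2 and FDR ≤ 0.05), where 0.0332% of 51227 transcripts did. None had an unadjusted p under 0.05, against 3.56% of transcripts, and DESeq2's Wald test, which called 1169 transcripts, called 0 of them. In 2 of the 38 the groups did not overlap, against 9.95% of transcripts. A test of transcript usage called 0 of the 8 members with several transcripts (edgeR, FDR = 1.0 for each), where it called 1.63% of 10360 genes.

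Wt1 was assembled as 3 transcripts, each between 3032 and 3092 bases long. NM_144783.2 has exon 5 and KTS, MSTRG.10372.2 lacks exon 5 and has KTS, and MSTRG.10372.1 lacks both. None of the 3 has exon 5 without KTS, so reads of such a form could only be counted under these models or not at all. The KTS and exon 5 shares that follow depend on this set of models. The transcripts with KTS took 66.4%, 63.1% and 63.0% of Wt1 counts in controls and 65.0%, 62.3% and 62.6% in PB pools. Control 1 was highest and PB 2 lowest, and the difference of -0.83 percentage points was within the spread (two-sided exact permutation test, p = 0.5; with 3 pools against 3, p cannot go below 0.1). Exon 5 was in 40.1%, 39.0% and 36.9% of counts in controls and in 40.3%, 38.5% and 35.9% in PB pools, and these values interleaved.

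The −KTS transcript was 1 of the 2 member transcripts whose groups did not overlap. MSTRG.10372.1 had 9770, 12005 and 9265 counts in controls and 10383, 11056 and 12261 in PB pools. After scaling all PB pools were above all controls, with log2FC = 0.085 ± 0.047 (FDR = 1.0, edgeR). The assembled names mark models that StringTie built from these reads.

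Gata4 was divided mainly between XM_011244956.2, with the 3 bases, and MSTRG.5753.4, without them, both from the same distal first exon (chr14:63271584-63271715). The 3 bases were in 49.7%, 50.6% and 50.9% of Gata4 counts in controls and in 51.7%, 51.6% and 51.8% in PB pools. XM_011244956.2 alone took 48.7%, 49.6% and 49.0% in controls and 51.6%, 51.5% and 50.7% in PB pools. Both sets were separate, and the share of XM_011244956.2 was 2.21 points higher after PB (two-sided exact permutation test, p = 0.1, the smallest value possible).

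A minor Gata4 transcript with another distal first exon, XM_011244957.2, had 327, 340 and 519 counts in controls and 6, 9 and 346 in PB pools. PB 1 and PB 2 were low while PB 3 stood with the controls, with log2FC = -1.90 ± 1.59 (FDR = 1.0, edgeR). This transcript was singled out after its values were seen. Without PB 3 the usage test called Gata4 (edgeR, FDR = 5.77e-05). PB 3 was the PB pool with this transcript near the control counts, so leaving it out gives no separate evidence of a change. The fit without PB 3 called 324 genes in usage, against 169 with all pools, where Gata4 was not called. The RefSeq transcripts that start at the proximal exon, NM_008092.4 and NM_001310610.1, had at most 6 counts in any pool. The assembled MSTRG.5753.1, which starts a little upstream of them at chr14:63247063, had 1935 to 3041 counts. Distal first exons took from 90.7% to 93.2% of the counts.

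Lhx9 had the largest movements of transcripts, and they did not follow the treatment. NM_001025565.2, which has the internal start and the distal last exon, had 8890, 404 and 390 counts in controls and 813, 496 and 10119 in PB pools. It was the leading transcript in control 1 and PB 3, with 67.8% and 62.9% of Lhx9 counts, and took between 3.52% and 7.83% in the other 4. NM_010714.3, with the upstream start and the same last exon, went the other way, with 14.1% in control 1, 18.8% in PB 3 and between 47.3% and 49.4% elsewhere.

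Added up, transcripts with the internal start reached 92.9 CPM (control 1) and 88.9 CPM (PB 3) and stayed at 14.7 to 16.6 CPM in the other 4 pools. Transcripts with the upstream start stood at 40.5 and 49.5 CPM in the same 2 pools and at 77.5 to 88.5 CPM elsewhere. By the deposited split of reads, the higher Lhx9 sums of control 1 and PB 3 held more internal-start and fewer upstream-start counts. NM_001025565.2 and NM_010714.3 share the last exon of 3525 bases and other exons, so this split depends on how shared reads were divided. Whether use of the starts differed was not tested. The distal last exon took 82.2% of counts in control 1 and 82.0% in PB 3, and 62.2% to 68.8% elsewhere. Per length, Lhx9 in control 1 (45.5) and PB 3 (51.4) was nearer to the other pools (39.9 to 48.8) than in CPM.

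**Figure D4:**
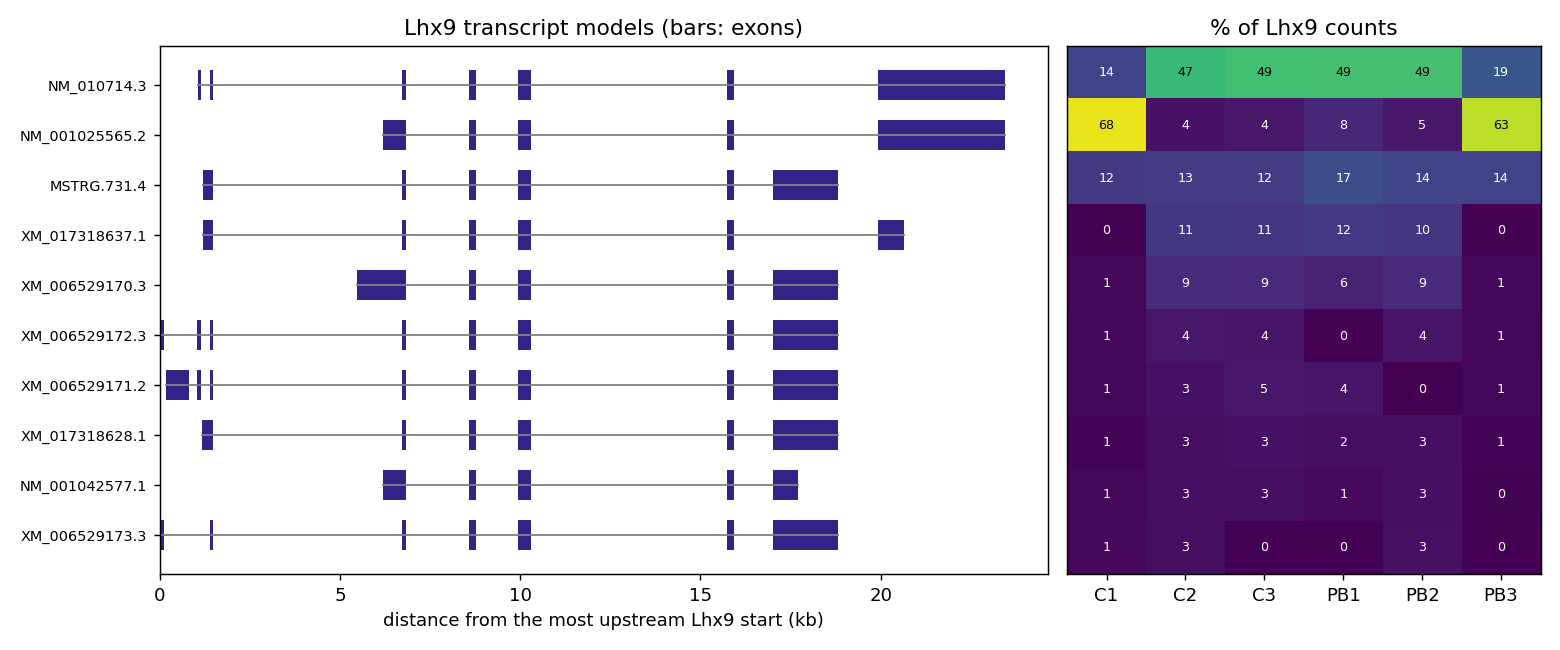
Left, the 10 Lhx9 transcript models, 5′ to 3′, by distance in kb from the most upstream start, with bars for exons. Right, the percent of Lhx9 counts each took in the control pools (C1 to C3) and PB pools (PB1 to PB3); NM_001025565.2 leads in C1 and PB3 and NM_010714.3 in the other 4 pools.

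The assembled Lhx9 transcript MSTRG.731.4 had 1556, 1451 and 1083 counts in controls and 1758, 1505 and 2268 after PB (log2FC = 0.39 ± 0.19, FDR = 1.0, edgeR). It has the upstream start, the proximal last exon and an exon 3 bases shorter than the RefSeq curated forms. The share of RefSeq-named Lhx9 transcripts was accordingly 88.1%, 87.4% and 87.5% in controls and 83.1%, 85.8% and 85.9% in PB pools, which did not overlap (two-sided exact permutation test, p = 0.1). Counted per kb these shares overlapped, at 82.5%, 85.4% and 85.4% in controls and 80.0%, 83.4% and 79.3% after PB (p = 0.2, exact permutation test).

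Cbx2 and Six4 also had transcripts whose shares moved between pools of 1 group, though in each gene the same transcript led in every pool. The Cbx2 transcript XM_006532104.1, which carries an additional exon of 183 bases, had 804, 1024 and 96 counts in controls and 2, 0 and 1954 in PB pools. The leading NM_007623.3 was at 48.0% of Cbx2 counts in PB 3, at 91.1% and 90.2% in the other PB pools, and at 81.3%, 69.4% and 83.8% in controls. The Six4 transcript with an additional first exon, XM_006515632.3, took 34.4%, 21.7% and 24.6% of counts in controls and 16.6%, 19.1% and 42.8% in PB pools. Its largest shares were again in PB 3 and control 1, and neither gene's groups were separate.

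**Figure D5:**
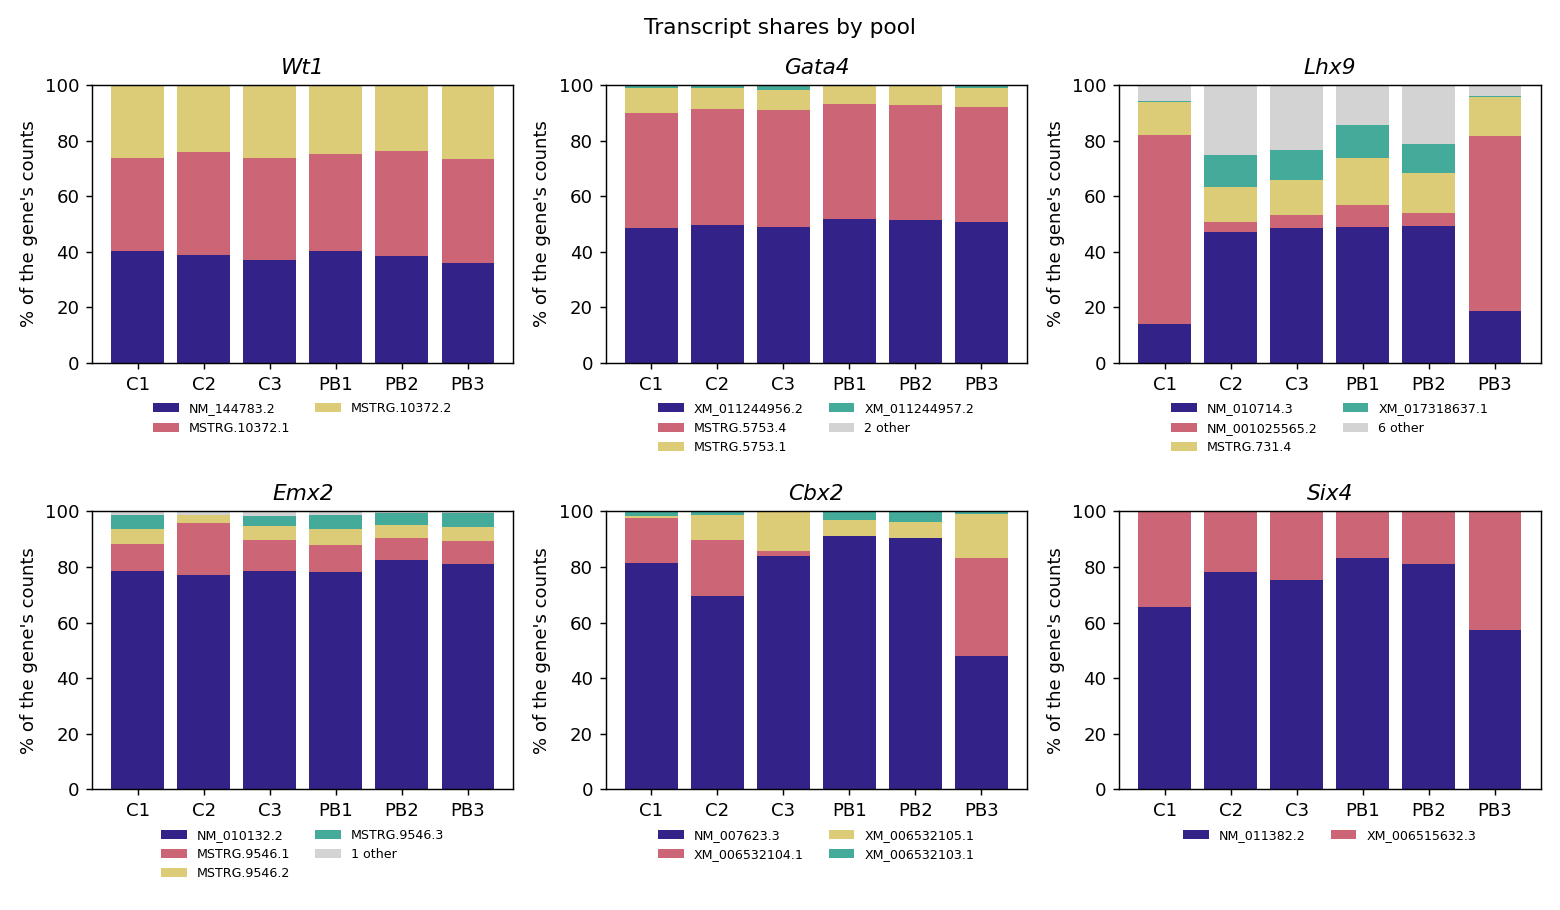
Percent of each gene's counts (y axis) taken by its leading transcripts in control pools (C1 to C3) and PB pools (PB1 to PB3), with the remaining transcripts in grey. Wt1 and Gata4 are divided alike in the 6 pools, while Lhx9, Cbx2 and Six4 shift between pools of the same group, Lhx9 and Six4 most in C1 and PB3 and Cbx2 most in PB3.

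Emx2 was led by NM_010132.2, with 77.1% to 78.5% of counts in controls and 78.2% to 82.6% in PB pools. The rest was mostly in 3 assembled models that start upstream at chr19:59409459 or 59409467 and are joined to the Emx2 locus by 1 long intron. Each has a first exon of 39 or 47 bases and a second of 992 to 996 bases. The second lies inside the last exon of NM_010132.2 (chr19:59463880-59465357). Counts of these models thus depend on how reads of the shared stretch were divided, and the upstream start was not tested. The largest of these models, MSTRG.9546.1, had 1334, 2845 and 1337 counts in controls and 1318, 1084 and 1205 in PB pools. Its groups were separate after scaling, with log2FC = -0.60 ± 0.29 (FDR = 1.0, edgeR) and a range from -0.76 to -0.27 when 1 pool was left out. The neighbour MSTRG.9546.3 had 0 counts in control 2, where MSTRG.9546.1 was highest. Summed, the 3 assembled models overlapped between groups, at 27.8, 28.3 and 25.6 CPM in controls and 28.1, 23.0 and 22.9 CPM in PB pools.

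Nr5a1 was almost wholly NM_139051.3, with 96.9% to 97.8% of counts in every pool. Its share was 97.2% ± 0.262 in controls and 97.6% ± 0.178 in PB pools (SD, n = 3), separate groups with a difference of 0.41 points (two-sided exact permutation test, p = 0.1). Counted per kb the groups overlapped (p = 0.2, exact permutation test). Zfpm2 was mostly NM_011766.5, at 98.1%, 87.3% and 98.5% in controls and 93.5%, 98.7% and 96.9% after PB. Nr0b1 had 1 transcript, NM_007430.5. In all, the leading transcript's share was separate between groups in 2 of 8 members, against 10.1% of 10357 genes, and the share of RefSeq-named transcripts in 2 of 4, against 8.94% of 3400 genes. Of the 13 share comparisons made, 12 of them distinct because 1 Wt1 transcript is both the leading and the RefSeq-named one, 4 reached the smallest possible p of 0.1. Counted per kb 2 did, both for Gata4 and both resting mainly on XM_011244956.2.

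Genes on the other strand overlapped 5 members. Wt1os, which begins head to head with Wt1 and shares 28 bases with it, was at 45.0, 41.5 and 38.2 CPM in controls and at 53.1, 43.3 and 55.1 CPM in PB pools. PB 2 lay within the control range, and log2FC = 0.28 ± 0.11 (FDR = 0.888, edgeR) did not pass the threshold. Emx2os, which lies wholly inside the span of the assembled Emx2 models, was at 27.5 ± 1.41 CPM in controls and 28.6 ± 0.169 CPM after PB (SD, n = 3; FDR = 0.893, edgeR). Mnat1 at Six4, Gm35829 at Cbx2 and Gm33353 at Zfpm2 had FDR values of 0.916 and 0.944 and, for the last, 0 counts in every pool. The libraries were strand-specific, but the sources used here do not give the strand setting of the counting, so overlapping partners may share reads.

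The genes around the members, from lists of related genes, were read in the same fit, in which 4.46% of genes had an unadjusted p under 0.05. Of 19 other gonad formation genes, 18 were tested and 0 passed the threshold, with a median log2FC of 0.036, and 1 had an unadjusted p under 0.05. This was Dmrt1, a DM-domain factor of germ cells and Sertoli cells, at 16.9, 10.1 and 16.6 CPM in controls and 10.4, 9.41 and 10.5 CPM in PB pools. Control 2 lay with the PB pools, with log2FC = -0.52 ± 0.20 (FDR = 0.888, edgeR). Gadd45g, which acts upstream of Sry in the testis, was at log2FC = -0.21 ± 0.091.

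Among 20 paralogs of the members, 0 passed the threshold, with a median log2FC of -0.019 and 0 at an unadjusted p under 0.05. The smallest p-values belonged to Gata2 (log2FC = -0.45 ± 0.20), Lhx2 (-0.34 ± 0.24) and Gata5 (-0.18 ± 0.17). Among 10 subunits of the complex PRC1, the partners of CBX2, 0 passed the threshold, with a median log2FC of 0.049, and 1 had an unadjusted p under 0.05. This was Rybp, a ubiquitin-binding subunit, and it was at 89.4, 88.6 and 87.5 CPM in controls and 94.1, 94.9 and 94.6 CPM in PB pools, separate groups with log2FC = 0.096 ± 0.039 (FDR = 0.888, edgeR). Scmh1 (0.18 ± 0.080) and Phc3 (0.092 ± 0.064) were next.

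Of 17 reported targets of WT1, NR5A1 or GATA4, 0 passed the threshold, with a median log2FC of -0.056, and 1 had an unadjusted p under 0.05. This was Amhr2, the receptor of anti-Müllerian hormone, which was at 203.1, 195.6 and 182.6 CPM in controls and at 182.2, 174.3 and 169.0 CPM after PB. The groups were just separate, by 182.6 against 182.2 CPM, with log2FC = -0.15 ± 0.055 (FDR = 0.888, edgeR). Insl3 (0.83 ± 0.39) and Cyp26b1 (-0.20 ± 0.11), a retinoic acid-degrading enzyme, were next. Insl3 was low, at 0.463 to 0.570 CPM in controls and at 0.595, 0.636 and 1.45 CPM in PB pools, where PB 3 stood apart from the other 5 pools.

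Cell types, those said above to express the members and others, were read from lists of their markers, with no gene past the threshold in any list. Of 9 surface epithelium markers, 9 had a log2FC above 0, with a median of 0.25, while 49.3% of all genes tested were below 0. Their summed level was 496.3 to 584.2 CPM in controls and 597.9 to 711.4 CPM in PB pools, and these ranges did not overlap. Lrrn4 was at 40.5, 31.2 and 30.9 CPM in controls and at 47.0, 52.1 and 59.3 CPM in PB pools, with log2FC = 0.63 ± 0.13 (FDR = 0.888, edgeR). It was 1 of 3 with an unadjusted p under 0.05, beside Aldh1a2 (0.15 ± 0.047), the retinoic acid-producing enzyme, and Gpm6a (0.47 ± 0.18). PB 3, the pool with the most Lhx9, had the highest sum at 711.4 CPM, but control 1, the other high Lhx9 pool, was at 580.8 CPM beside 584.2 CPM in control 2.

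The 12 pregranulosa markers had a median log2FC of 0.0056 and summed to 2639 to 2778 CPM in controls and 2600 to 2834 CPM in PB pools. Runx1 (log2FC = 0.15 ± 0.056) and Cdkn1b (0.19 ± 0.078) were the 2 with an unadjusted p under 0.05, and Wnt4 (-0.081 ± 0.058) came next. The 10 Sertoli markers, which include Dmrt1, had a median of -0.030 and the 7 Leydig or steroidogenic markers one of 0.11, and PB 1 stood apart in the latter (34.2 CPM against 59.5 to 64.4 CPM in the other 5 pools) through Hsd3b1, at 14.8 CPM beside 39.0 to 45.6 CPM. The 3 adrenal markers tested, Mrap, Akr1b7 and Mc2r, summed to at most 10.5 CPM.

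The remaining lists were the 8 interstitial markers (median log2FC 0.016), 6 endothelial markers (-0.15), 8 mesonephric markers, Emx2 included (-0.32), 10 germ cell markers (-0.059) and 7 red cell genes (-0.30). Unadjusted p-values under 0.05 were found for 0 interstitial, 1 endothelial (Tie1, log2FC = -0.24 ± 0.091), 0 mesonephric, 3 germ cell and 1 red cell gene. Cdh16, an epithelial cadherin of the mesonephric ducts, was at 6.96 ± 6.82 CPM in controls and 2.90 ± 0.987 CPM after PB (SD, n = 3; FDR = 0.888, edgeR). The germ cell genes were Pou5f1 (-0.58 ± 0.20), Dnd1 (-0.55 ± 0.20) and Dppa3 (-0.52 ± 0.21). Control 2 lay with the PB pools for Pou5f1 (18.3 CPM) and Dppa3 (11.9 CPM), and for Dnd1 it was below PB 2 (7.805 against 8.52 CPM). Of the 10 germ cell markers, 7 were below 0 and 3 above. Their sums overlapped, at 730.9 to 987.9 CPM in controls and 644.5 to 1074 CPM in PB pools. The red cell gene was Hba-a2 (-0.77 ± 0.28), an alpha globin gene. Its near-identical copy Hba-a1 was at -0.090 ± 0.47, and the counting may have split reads between these copies. Red cell sums ran from 15030 CPM in control 3 to 31930 CPM in control 2. Whether cell makeup differed between the pools, and what part it had in the values of the 9 members, was not tested.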

How the data were processed

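Per the labels and the study's methods, the authors sequenced paired-end, strand-specific polyA libraries, aligned them to mm10 with HISAT2 2.1.0, assembled transcripts with StringTie 1.3.5 and compared them with DESeq2 1.30.0. The deposited values were counts per transcript, not normalized, and the authors' deposited log2 fold changes and p-values were not used. Here counts of the transcripts of each gene name were summed. The 3 control and 3 PB pools were compared with edgeR 4.0.16 (R 4.3.3): TMM scaling, a filter of 10 counts (15 in total), and the quasi-likelihood test with Benjamini-Hochberg adjustment, on gene sums and on transcripts, where the deposited split of reads among transcripts adds error that counts do not show. Usage was tested by edgeR's differential splicing F test, which called unchanged genes more often than its FDR on simulated data. Exact permutation tests used scipy 1.17.1. DESeq2 1.42.0 and the other alternatives are given at the end. Named genes were all members, their transcripts with at least 10% of a gene's counts, overlapping genes, and the 3 smallest p-values of each list, of which 1 gene is not reported here. Members and lists were chosen with earlier results of these data known. Splice classes other than KTS were defined after the annotation was seen and had no test. Sequences came from GENCODE M21 (same build). Replicate numbers did not pair the samples. The share of counts without a gene name was 3.05% to 4.49% per pool, and these stayed out of gene sums. Pools held 97165644 counts or more, but precision depends on the counts of each feature and is low for transcripts and genes with few.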

Additional observations from a re-analysis of the deposited data

How the results depend on the processing

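In each setting tried, 0 of the 9 members was called and 0 had an unadjusted p under 0.05, and 0 member transcripts were called. Over all features, 3 genes and 17 transcripts were called: DESeq2's Wald test gave 11 genes and 1169 transcripts, requiring 10 counts in all pools of a group 39 transcripts, RefSeq-named transcripts alone 8 genes, and a replicate block 0 genes and 0 transcripts. Usage, called in 169 genes, was called in 307 under the stricter filter and in 73 with the block. The replicate numbers share only a number: deviations of same-numbered pools correlated at 0.0934, 0.147 and -0.0177. With 1 pool left out, calls ran from 3 to 9 genes, 0 to 19 transcripts and 265 to 324 genes in usage, a larger number than with all pools in each of the 6 fits. In these fits, a member's usage was called only for Gata4 without PB 3. The Simes combination of transcript p-values, chosen after seeing the data and run on all 6 pools together only, called 0 members. The KTS difference ran from -1.69 to 0.29 points with 1 pool left out. The level of Wt1 over Six4 was 87.5-fold with each gene's longest length. With RefSeq-named transcripts alone the highest member was Nr5a1, 41.4-fold over Six4, and Wt1 was the fourth of the 9, since 2 of its 3 transcripts are assembled.

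Signs near 0 changed. Gata4, at 0.00035 (log2), turned to -0.0030 with DESeq2's size factors, -0.0034 with its Wald test, -0.0043 with no filter and -0.0024 with the stricter filter, and MSTRG.5753.4 turned to 0.0010 with the last. With 1 pool left out, log2 fold changes that changed sign ran from -0.087 to 0.018 for Cbx2, -0.17 to 0.0058 for Nr0b1, -0.022 to 0.076 for Nr5a1, -0.053 to 0.056 for Gata4, -0.022 to 0.052 for Emx2, -0.050 to 0.28 for Lhx9, -0.24 to 0.061 for Six4 and -0.0097 to 0.044 for Zfpm2. By transcript they ran from -0.20 to 0.17 for NM_007623.3, -0.058 to 0.041 for MSTRG.5753.4, -0.094 to 0.48 for NM_010714.3, -9.06 to 0.50 for XM_006532104.1, -0.17 to 0.0058 for NM_007430.5, -0.0022 to 0.10 for NM_011766.5, -0.012 to 0.088 for MSTRG.10372.2, -2.33 to 3.14 for NM_001025565.2, -0.28 to 0.086 for NM_011382.2, -0.018 to 0.079 for NM_139051.3, -0.046 to 0.098 for NM_144783.2 and -0.74 to 0.18 for XM_006515632.3. The cause was not tested.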
